A study of Homo sapiens with 8 samples.

Results

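The numbered zinc finger (ZNF) genes of chromosome 19 were followed through open chromatin in the myeloma lines JJN3 and KMS11. Members were all peaks of the deposited table on chromosome 19 whose assigned transcript carries a ZNF symbol followed only by digits. This gave 228 of 62528 peaks (0.365%), assigned to 173 genes. Of these, 169 peaks of 158 genes lay within 1000 bp of the transcript start and are called promoter peaks. The other 59, at 41 genes, are called distal: 44 overlapped the transcript further in and 15 lay outside it. No measured value entered the rule. The promoter members nearest to the 1000 bp limit were those of ZNF799 (923 bp from the start) and ZNF541 (797 bp), and the nearest distal members were those of ZNF700 (1057 bp) and ZNF614 (1386 bp).

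The assay was ATAC-seq, in which a transposase cuts and tags DNA that is free of nucleosomes, so that a peak of reads marks accessible chromatin. JJN3 and KMS11 are established lines from human multiple myeloma, a plasma cell cancer, kept in medium with 5% fetal bovine serum. Each line was given DMSO (the solvent), 200 nM pomalidomide, 40 nM GNE-781, or both agents at those doses, for 48 h. There was 1 library for each line and treatment, 8 in all. Pomalidomide makes the ubiquitin ligase receptor cereblon bind zinc finger proteins such as IKZF1 and IKZF3, which are then degraded. The compound GNE-781 occupies the bromodomain of EP300 and of its paralogue CREBBP, coactivators that acetylate histones. The labels give no genotype or engineered allele for these 8 libraries, and each line stands for 1 tumour.

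Most ZNF genes of chromosome 19 encode KRAB zinc finger proteins, which arose by repeated tandem duplication and lie in clusters. Their fingers read DNA, often in retrotransposons, and their KRAB domain recruits TRIM28, which brings the methyltransferase SETDB1 and heterochromatin protein to the site. The clusters themselves carry H3K9 methylation over the gene bodies while their promoters can stay open, and ZNF274 takes part in placing that mark at the 3′ ends of ZNF genes.

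The promoters on which the results turn are shown to let their composition be compared. Each line gives the 250 bases before the RefSeq start of the gene (GRCh38.p14), 5′ to 3′ along the gene. ZNF829, ZNF256 and ZNF556 were more open in JJN3, and ZNF57 and ZNF682 were more open in KMS11. ZNF442 was called higher under the drug combination, with a like change under pomalidomide alone that was not called. Capitals mark any of the motifs searched on both strands: CCGGAA, the core of ETS factor sites; TGANTCA, the AP-1 site; TGACGTCA, the cyclic AMP response element (CRE); AAGATGG, a YY1 site; GCATGCGC, an NRF1 site. The others were GGGCGG, the GC box read by SP factors; the CCAAT box, read by NF-Y; TGGGAA, a core read by Ikaros proteins; the palindrome TCTCGCGA; and CACGTG, the E-box. Matches may overlap.
ZNF829 (chr19:36916292-36916541, minus strand): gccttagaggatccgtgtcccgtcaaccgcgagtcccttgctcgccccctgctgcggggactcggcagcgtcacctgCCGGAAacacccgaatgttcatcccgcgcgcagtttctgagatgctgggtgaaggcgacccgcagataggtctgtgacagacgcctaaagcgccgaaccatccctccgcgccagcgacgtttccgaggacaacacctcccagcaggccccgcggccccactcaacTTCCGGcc
ZNF256 (chr19:57947707-57947956, minus strand): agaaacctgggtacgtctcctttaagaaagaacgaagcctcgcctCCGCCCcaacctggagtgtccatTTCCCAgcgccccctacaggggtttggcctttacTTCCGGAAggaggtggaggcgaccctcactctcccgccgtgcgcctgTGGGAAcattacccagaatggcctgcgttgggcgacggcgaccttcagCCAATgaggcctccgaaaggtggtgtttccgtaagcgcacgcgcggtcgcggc
ZNF556 (chr19:2867085-2867334, plus strand): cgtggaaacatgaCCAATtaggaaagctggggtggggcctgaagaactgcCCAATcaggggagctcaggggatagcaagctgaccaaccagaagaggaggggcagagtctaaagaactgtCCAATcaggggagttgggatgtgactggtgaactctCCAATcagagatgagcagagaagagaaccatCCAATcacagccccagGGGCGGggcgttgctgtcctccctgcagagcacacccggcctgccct
ZNF57 (chr19:2900678-2900927, plus strand): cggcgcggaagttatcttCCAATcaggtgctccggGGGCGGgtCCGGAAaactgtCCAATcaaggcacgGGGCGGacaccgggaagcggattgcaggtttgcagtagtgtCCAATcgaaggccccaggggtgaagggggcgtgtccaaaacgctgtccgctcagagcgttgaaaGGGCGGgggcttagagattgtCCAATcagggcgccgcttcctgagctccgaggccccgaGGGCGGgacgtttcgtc
ZNF682 (chr19:20039506-20039755, minus strand): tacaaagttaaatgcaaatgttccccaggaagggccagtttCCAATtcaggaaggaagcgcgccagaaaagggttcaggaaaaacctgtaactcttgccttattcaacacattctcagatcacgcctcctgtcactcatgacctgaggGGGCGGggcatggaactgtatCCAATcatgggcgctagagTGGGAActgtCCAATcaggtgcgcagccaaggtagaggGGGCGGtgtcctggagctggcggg
ZNF442 (chr19:12365684-12365933, minus strand): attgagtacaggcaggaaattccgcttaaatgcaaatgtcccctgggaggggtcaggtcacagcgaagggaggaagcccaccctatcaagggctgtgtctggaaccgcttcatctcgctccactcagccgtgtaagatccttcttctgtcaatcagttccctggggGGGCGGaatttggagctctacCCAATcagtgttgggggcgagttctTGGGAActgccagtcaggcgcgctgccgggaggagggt

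In these 250 bases ZNF829 held 26 CG pairs and 2 ETS matches, the nearer beginning 8 bases before the start, and no CCAAT or GC box match. ZNF57 held 23 CG pairs, 4 CCAAT and 4 GC box matches and 1 ETS match, whereas its neighbour ZNF556 held 4 CG pairs, 5 CCAAT matches and 1 GC box match. ZNF256 carried 2 overlapping ETS matches, on opposite strands, that make the palindrome TTCCGGAA. ZNF442 and ZNF682 had no ETS match, and each had 1 match to the Ikaros core.

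Of the 173 member genes, 152 were found by symbol in the RefSeq promoter table, which covers 300 bases per start. The table held 210 numbered ZNF genes of chromosome 19, and where a gene had several starts the one listed before the others was used. Of these 210 promoters, 181 (86.2%) overlapped a peak, and so did 84.1% of 195 ZNF promoters on other chromosomes. The share was 49% of 1300 other chromosome 19 promoters and 44.9% of all 27305 promoters. An ETS match stood in 115 of the 210 (54.8%), against 22.4% of the other chromosome 19 promoters, 17.6% of all promoters and 30.6% of all promoters with a peak. The Ikaros core stood in 41.9%, against 24.3% of all promoters, and CCAAT in 52.9% against 35.7%. ZNF promoters on other chromosomes lay close to those on chromosome 19 in ETS matches (47.2%). They were lower in the Ikaros core (32.3%) and in CCAAT (44.1%). An AP-1 match was held by 6.67% on chromosome 19 and by 7.76% of all promoters, a CRE match by 3.33% and 1.98%, a YY1 match by 7.62% and 6.06%, an NRF1 match by 3.33% and 3.27%, TCTCGCGA by 1.43% and 1.19%, and the E-box by 3.81% and 7.43%. The GC box was found in 69.5% and in 44.6% of all, or 71.7% of all with a peak. The 181 ZNF promoters with a peak had a median of 7 CG pairs per 100 bases and the 29 without one had 5.33. A match is a description of letters and says nothing about a bound factor.

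The 8 libraries held 1366628 to 5435673 counts in peaks, JJN3 under DMSO having the fewest, and the median promoter member had 22 counts there against 122 in KMS11 under both agents. All 228 members passed the minimum mean of 2 CPM (counts scaled to the library total). Promoter members took 0.305% of the counts of the JJN3 DMSO library (Wilson 95% interval 0.296 to 0.314) and up to 0.445% (0.437 to 0.452) in KMS11 under GNE-781, intervals that cover counting error only. Of 9 plasma cell markers 8 had a promoter peak, against 1 of 5 B cell, 0 of 6 T and NK cell, 1 of 6 myeloid, 1 of 5 erythroid and 3 of 6 stromal and endothelial markers.

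Scaled to peak width, their median level over all libraries was 27.2 CPM per kb (quartiles 22.1 and 34.6), below 32.8 for other chromosome 19 promoters and 35.9 for ZNF promoters on other chromosomes. The 5 highest belonged to ZNF584 (86.8 CPM per kb), ZNF444 (82.7), ZNF574 (81.2), ZNF787 (80) and ZNF837 (77.6). ZNF444 encodes a zinc finger protein with a SCAN domain in place of KRAB. Distal members had a median of 20.8 CPM per kb.

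Among genes whose proteins are known for binding particular retroelements or ZNF genes, the promoter of 1, ZNF93, was called between the lines. ZNF93, whose protein binds L1 retrotransposons, had 9.02, 12.7, 17.3 and 12.6 CPM at its promoter in JJN3 under DMSO, pomalidomide, GNE-781 and both, and 36.2, 24.2, 30.1 and 28.5 in KMS11. All JJN3 libraries were below all KMS11 libraries, and the log2 ratio was -1.16 ± 0.20 (SE). This call was lost without either DMSO library and relative to the rest of the chromosome.

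ZNF91, which binds SVA elements, had a promoter peak with means of 18.6 ± 3.76 CPM in JJN3 and 20.4 ± 6.16 in KMS11 (SD over the 4 libraries of a line, as in the values that follow). ZNF417, which binds HERV-K proviruses, had 27.1 ± 3.33 and 25.7 ± 0.7, and ZNF85 had 13.6 ± 2.02 and 10.9 ± 1.3. None of these 3 was called. ZNF274 had 35.7 ± 6.43 against 48.2 ± 3.21, which gave an adjusted p of 0.0123 but a difference of only 1.34-fold. ZNF175 had 18.2 ± 8.83 and 17.7 ± 4.21. ZNF331, an imprinted gene with 3 promoter peaks, had log2 ratios from -0.47 to 0.9, and none was called. The main promoter peak of ZNF787, with 37 ± 2.06 and 73.8 ± 9.66 CPM, had no overlap between the lines and stayed just inside the limit at 1.99-fold. No member peak was assigned to ZNF587, ZNF473, ZNF653 or ZNF382. The ZNF529 peak, however, overlaps the RefSeq promoters of both ZNF529 and ZNF382.

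Between the lines, 41 of 169 promoter members were called (24.3%) at an adjusted p under 0.05 and at least a 2-fold difference. Over all promoter peaks 21.7% were called, and over all peaks 31.9%, so the members' share lay near the background. Of the 41, 25 were higher in JJN3 (14.8% of 169, against 11.1% of all promoter peaks) and 16 in KMS11 (9.47%, against 10.6%). The other promoters of chromosome 19 leaned the other way, with 25 higher in JJN3 and 94 in KMS11 among 804. ZNF promoters on other chromosomes leaned to JJN3 as well, with 34 higher in JJN3 and 15 in KMS11 among 198. These leanings were not tested against each other, and that of the chromosome 19 members rested on the 2-fold limit. At the adjusted p limit alone, 33 promoter members were higher in JJN3 and 59 in KMS11. Because the 41 were chosen by the line difference over these same libraries, agreement among the treatments follows in part from that choice. All 41 had the same sign in each of the 4 treatments, a share not computed over all called promoter peaks. In 39 the JJN3 and KMS11 ranges did not overlap. Among all called promoter peaks 94.5% were apart in this way. The 4 libraries of a line received different treatments and serve here as its replicates, so their spread includes any drug effect. The labels do not say whether they came from separate cultures, so that spread may be partly technical. The number of copies of a chromosome segment also sets ATAC-seq counts, and copy number and openness cannot be told apart in these files. The median log2 ratio of all chromosome 19 peaks was -0.43.

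**Figure D1:**
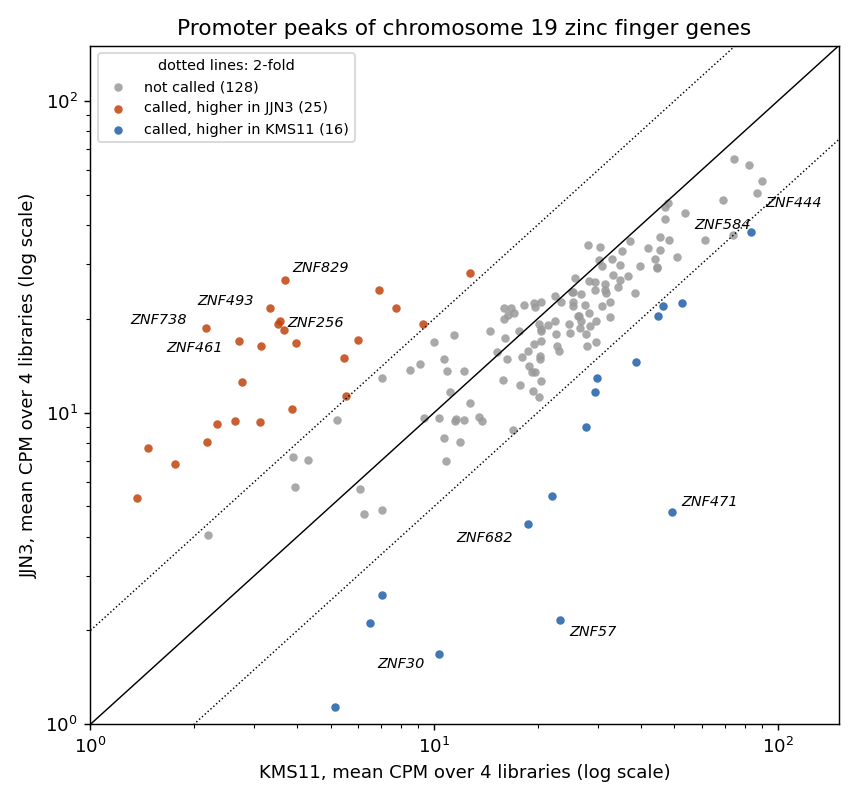
Mean accessibility of the 169 promoter peaks in JJN3 (vertical axis) and KMS11 (horizontal axis), each point 1 peak and each mean over 4 libraries in CPM on log scales. The 25 orange and 16 blue peaks lie outside the dotted 2-fold lines, and 101 of the 169 lay within 1.5-fold.

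The clearest differences were close to presence against near absence. At the ZNF471 promoter (chr19:56507462-56508333), JJN3 had 5.26, 4.67, 6.41 and 2.91 CPM under DMSO, pomalidomide, GNE-781 and both, and KMS11 had 50, 48.2, 53.4 and 45.8. ZNF471 encodes a KRAB zinc finger protein. Every KMS11 library stood far above every JJN3 library, a log2 ratio of -3.38 ± 0.22 (adjusted p 2e-21). The other promoter peak of ZNF471 was small in both lines, with means of 4.04 and 2.2 CPM and a log2 ratio of 0.89 that was not called. At ZNF57 (chr19:2900409-2901131), JJN3 had 4.51, 2.67, 0 and 1.45 CPM and KMS11 had 19.7, 23.4, 27.2 and 22.8, a ratio of -3.42 ± 0.32. A count of 0 in the GNE-781 library of JJN3 makes that library a floor and not a level.

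Other KMS11-higher promoters were those of ZNF30, with 1.68 ± 1.24 CPM in JJN3 and 10.3 ± 1.85 in KMS11, ZNF682 (4.38 ± 0.503 and 18.8 ± 1.89), ZNF835 (5.41 ± 1.66 and 22 ± 2.16) and ZNF667 (8.99 ± 2.31 and 27.6 ± 2.87). Smaller differences on well covered peaks were seen at ZNF324 (log2 ratio -1.44 ± 0.18), ZNF428 (-1.26 ± 0.16), ZNF846 (-1.14 ± 0.17), ZNF575 (-1.13 ± 0.14) and ZNF160 (-1.07 ± 0.16). These last 5 lost their call when counts were scaled to the rest of the chromosome. The lowest KMS11-higher promoters, ZNF788 and ZNF77, had JJN3 means of 1.14 and 2.12 CPM. The ZNF792 call was lost without the GNE-781 library of either line and relative to the rest of the chromosome.

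In the other direction, the ZNF829 promoter (chr19:36915983-36916548) had 23.3, 27.3, 30.8 and 25.2 CPM in JJN3 and 2.59, 2.79, 7.44 and 1.96 in KMS11. The ranges were far apart and the log2 ratio was 2.97 ± 0.25 (adjusted p 4.79e-16). Its peak also overlaps the RefSeq promoter of ZNF568. ZNF568 has a further promoter peak of its own at chr19:36973131-36973718, with 17.3, 25.3, 25.6 and 30.5 CPM in JJN3 and 7.25, 7.29, 8.08 and 4.99 in KMS11. Both peaks were higher in all JJN3 libraries, the latter by a log2 ratio of 1.87 ± 0.23.

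At the ZNF738 promoter (chr19:21358814-21359315) the JJN3 values were 21, 19.7, 17.3 and 17 CPM and the KMS11 values 2.33, 3, 2.26 and 1.07, a log2 ratio of 3.13 ± 0.29. Its neighbour ZNF493 had means of 21.6 ± 5.46 and 3.32 ± 0.677 CPM, a ratio of 2.69 ± 0.26. ZNF461, whose peak also overlaps the RefSeq promoter of ZNF567, had 17 ± 2.92 and 2.7 ± 0.859. ZNF256 had 19.3 ± 4 and 3.51 ± 0.995, ZNF223 had 19.7 ± 6.58 and 3.57 ± 1.1, and ZNF577 had 18.4 ± 4.15 and 3.66 ± 1.32. JJN3 was higher in every library at all of these promoters. ZNF808, a gene needed for human pancreas development, had 1 promoter peak that was not called (means 41.8 and 46.9 CPM) and another, chr19:52535756-52536228, with 16.4 ± 2.53 against 3.13 ± 1.01 CPM. The latter had a log2 ratio of 2.44 ± 0.28. The remaining JJN3-higher promoters were ZNF492, ZNF254, ZNF90, ZNF426, ZNF433, ZNF69, ZNF880, ZNF229, ZNF569, ZNF529, ZNF284, ZNF649, ZNF549, ZNF155 and ZNF573, with log2 ratios from 2.25 (ZNF492) down to 1.04 (ZNF573). The ZNF573 and ZNF155 calls were lost when single libraries were left out, those of either line under pomalidomide for both genes.

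**Figure D2:**
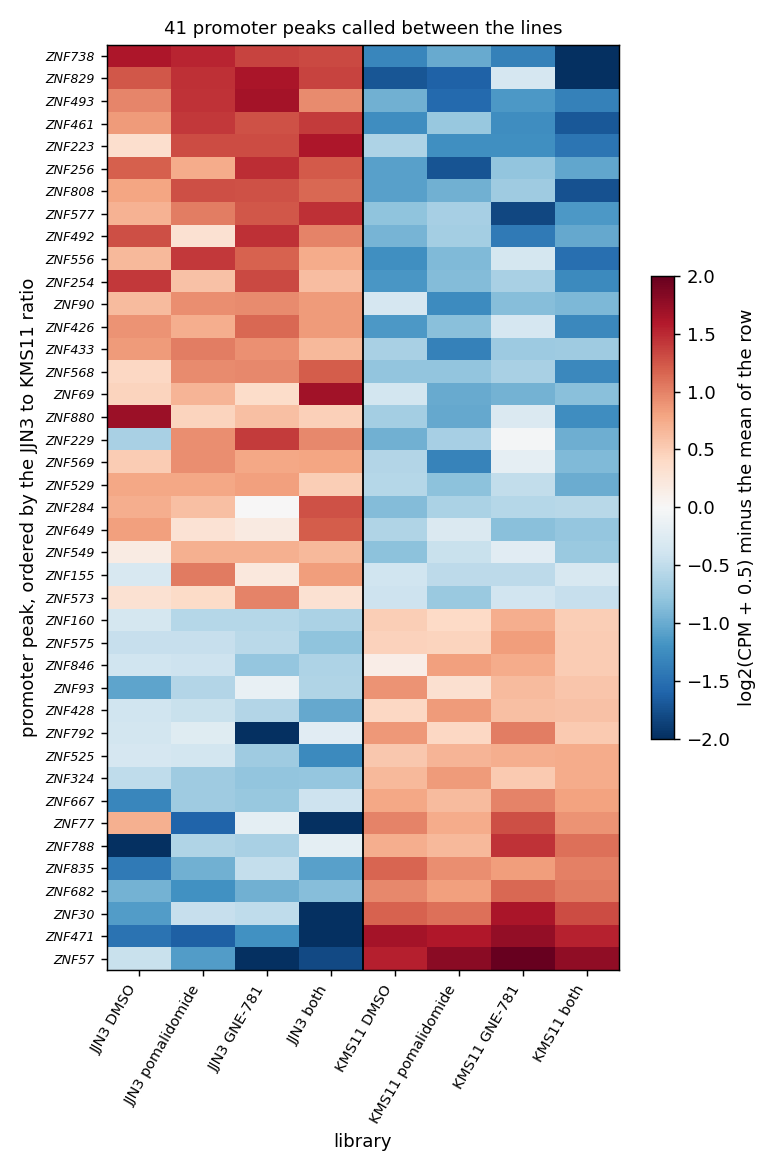
The 41 promoter peaks called between the lines (rows) in the 8 libraries (columns), as log2(CPM + 0.5) minus the mean of the row, from blue (low) to red (high). Rows were chosen for a difference between the lines, so a boundary between the lines is set by that choice. ZNF829 in KMS11 under GNE-781 (7.44 CPM) is paler than in the other KMS11 libraries.

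JJN3-higher promoter peaks were narrower than the rest, with a median width of 453 bp against 820.5 bp for KMS11-higher peaks and 702.5 bp for those not called. Over all promoter peaks the corresponding medians were 535, 619 and 771 bp. Among RefSeq promoters overlapped by their own member peak, 12 of 18 in the JJN3-higher group held an ETS match and 4 of 11 in the KMS11-higher group (66.7% and 36.4%). Over all promoters with such a peak these shares were 33.1% and 14.2%. The GC box stood in 10 of 18 and in 10 of 11, and the median number of CG pairs per 100 bases was 6.67 and 9.67. Over all promoters the CG medians were 8.33 and 8.67. These groups are small and were not tested. Of the 169 promoter members 35 also overlapped the RefSeq promoter of another gene, 7 of them a further numbered ZNF gene, and 11 of these were among the 41.

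Along the chromosome, the peaks fell into 14 groups with no gap above 1 Mb. Differences in both directions occurred side by side. Among 168 pairs of neighbouring promoter peaks, 13 had both peaks called, 11 in the same direction and 2 in opposite directions. ZNF556 (means 16.7 ± 4.35 CPM in JJN3 and 3.95 ± 1.6 in KMS11) is followed by ZNF57, which was higher in KMS11, and ZNF682 is followed by ZNF90, which was higher in JJN3 (5.32 ± 0.571 and 1.37 ± 0.508). ZNF155, ZNF223 and ZNF284 formed the only run of 3, all higher in JJN3. Runs of a pair included ZNF738 with ZNF493, ZNF529 with ZNF461 and ZNF829 with ZNF568 in JJN3, and ZNF667 with ZNF471 and ZNF30 with ZNF792 in KMS11. The group from ZNF565 to ZNF573, which spans 1.57 Mb, had 6 of its 15 promoter peaks higher in JJN3 and 0 higher in KMS11. The other peaks within its span had the same pattern, with 5 of 13 higher in JJN3 and 0 in KMS11. The median log2 ratio of its promoter members was 0.18. In the largest group, from ZNF579 to ZNF324, 2 of 46 were higher in JJN3 and 4 in KMS11. Of the 41 other peaks within its span, 1 was higher in JJN3 and 11 in KMS11. The median log2 ratios were -0.42 for its promoter members and -0.48 for those other peaks. The group from ZNF575 to ZNF296 differed from its surroundings, with 4 of 15 promoter peaks higher in JJN3 and 2 in KMS11. Of the 53 other peaks within its span, 3 were higher in JJN3 and 16 in KMS11. There the medians were 0.31 for the promoter members and -0.77 for the other peaks.

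**Figure D3:**
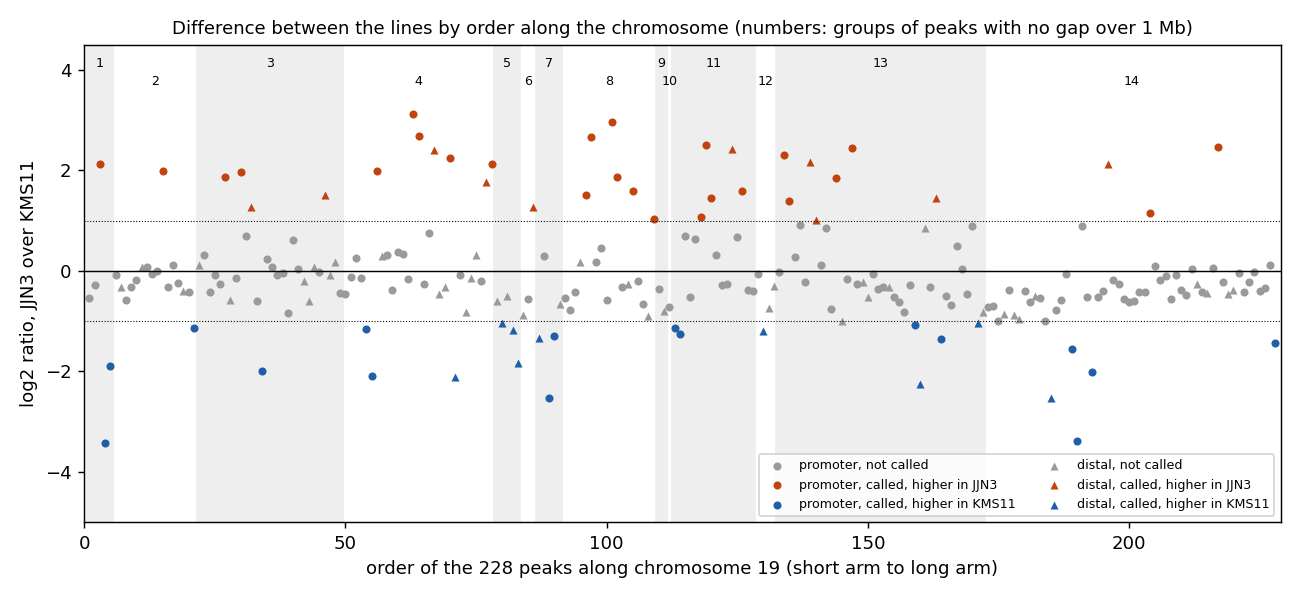
Log2 ratio of JJN3 over KMS11 (vertical axis) for the 228 peaks in their order along chromosome 19 (horizontal axis, rank only), circles for promoter and triangles for distal peaks, with shading and numbers for the 14 groups. Peaks called in either direction lie among uncalled peaks near 0, and group 8 (ZNF565 to ZNF573) has promoter calls only above 0.

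Distal members gave 19 calls of 59 (32.2%, against 35.4% of all distal peaks), 10 higher in JJN3 and 9 in KMS11. In 14 of the 19 the line ranges were apart, and among all called distal peaks 82.2% were. ZNF43, a gene with no promoter member, had a peak 3747 bp from its start with 9.77, 11.3, 12.2 and 14.1 CPM in JJN3 and 1.81, 1.93, 3.56 and 1.96 in KMS11. JJN3 was higher throughout, with a log2 ratio of 2.4 ± 0.32. Further JJN3-higher distal peaks lay at ZNF235 (2.42 ± 0.29), ZNF614 (2.17 ± 0.25), ZNF460 (2.13 ± 0.38), ZNF681 (1.77 ± 0.34), ZNF844 (1.28 ± 0.32) and ZNF432 (1.02 ± 0.20). KMS11-higher ones lay at ZNF444 (-2.52 ± 0.34), ZNF665 (-2.25 ± 0.36), ZNF91 (-2.11 ± 0.46), ZNF807 (-1.33 ± 0.38), ZNF541 (-1.19 ± 0.26) and ZNF331 (-1.03 ± 0.38). Leaving out single libraries ended 7 of the 19 calls, those of ZNF432, ZNF507, ZNF541, ZNF807, ZNF331 and the weaker 2 of the 3 ZNF536 peaks. For all but 1 of these, a ZNF536 peak, the pomalidomide library of either line was among those that mattered.

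Distal and promoter peaks of a gene did not always go the same way. ZNF525 had a promoter peak with 11.6 ± 3.27 CPM in JJN3 and 29.3 ± 1.82 in KMS11, and a distal peak with 6.99 ± 1.15 and 2.77 ± 1.65. Both were called, in opposite directions (log2 ratios -1.35 and 1.45), but the promoter call was lost relative to the rest of the chromosome. The ZNF235 promoter had a ratio of 0.68, under the 2-fold limit, beside its distal ratio of 2.42. ZNF536, a gene active in neurons, had 5 distal peaks and no promoter peak, and 3 of the 5 were called, all higher in KMS11. The one with the largest difference, 170108 bp from the start, had 11.3, 3, 4.49 and 4.36 CPM in JJN3 and 13.5, 20.6, 19.4 and 20.7 in KMS11. JJN3 under DMSO came close to the KMS11 range there, and the log2 ratio was -1.84 ± 0.28. ZNF490 and ZNF675 had 4 peaks each, of which 1 distal peak of ZNF490 was called (1.51 ± 0.40).

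When promoter counts were summed for each gene, 39 of 158 genes were called (24.7%, against 20% of all genes), 24 higher in JJN3 and 15 in KMS11. Relative to the other peaks of chromosome 19, a scaling added after the data were seen, 43 promoter members were called: 35 higher in JJN3 and 8 in KMS11, or 81.4% JJN3-higher against 61% with the main scaling. The median log2 ratio of the promoter members was -0.22 with the main scaling and 0.22 relative to the rest of the chromosome, so the direction of the group as a whole depends on the scaling. That scaling moved the median of all peaks from -0.08 to 0.37. All 25 JJN3-higher calls were kept there, and 8 of the 16 KMS11-higher ones. In all 15 scalings, filters, tools and left-out libraries tried, 26 of the 41 promoter calls and 9 of the 19 distal calls were kept. A further 5 promoter and 3 distal calls were kept wherever tested, but were not tested with the minimum of 5 CPM, which removes them.

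**Figure D4:**
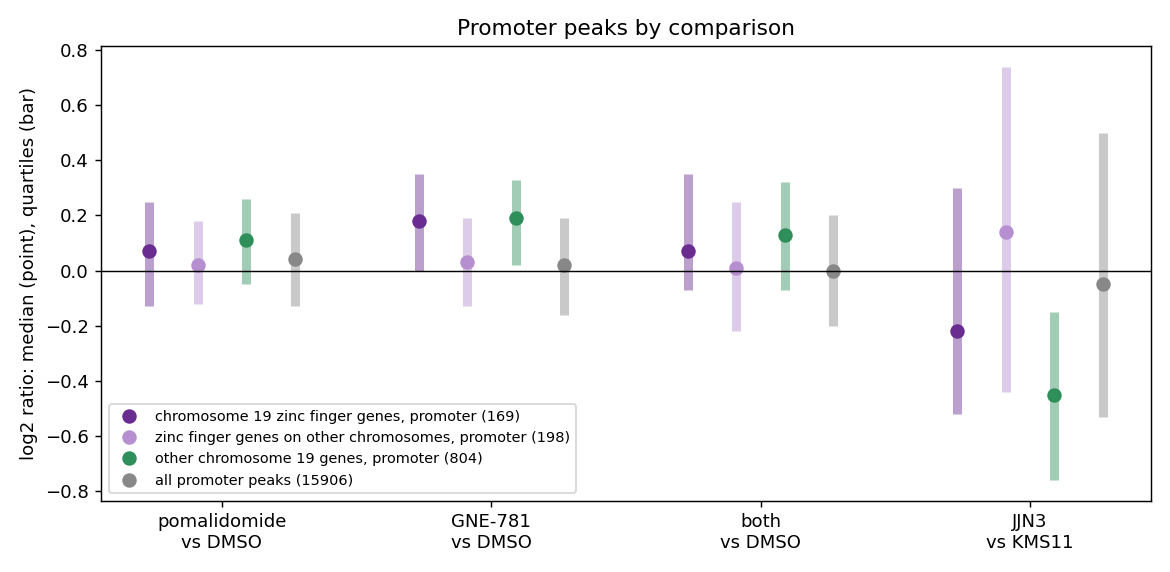
Median log2 ratio (point) and quartiles (bar) of promoter peaks for chromosome 19 ZNF genes, ZNF genes elsewhere, other chromosome 19 genes and all genes, in each treatment against DMSO and in JJN3 against KMS11. The chromosome 19 ZNF promoters and the other chromosome 19 promoters have like medians under GNE-781 (0.18 and 0.19), and the widest bars are those between the lines.

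Few members were called in the drug comparisons. Under both agents 2 of 228 were (0.877%), beside 2.35% of other chromosome 19 peaks and 4.79% of all peaks. Under pomalidomide 0 of 169 promoter members were called by edgeR's test, beside 0.49% of all promoter peaks and 1.25% of all peaks, so the count lay near the background. DESeq2 also called 0, where it called only 0.116% of all peaks. In edgeR's test 7 of 169 (4.14%) had an unadjusted p under 0.05, against 6.19% of all promoter peaks. The median promoter log2 change was 0.07, with 0.11 at other chromosome 19 promoters and 0.04 over all promoters. The promoters of lowest p, none of them called, were ZNF442 (0.95 ± 0.30), ZNF845 (0.66 ± 0.23) and ZNF564 (0.51 ± 0.20) on the higher side, and ZNF880 (-0.97 ± 0.52), ZNF599 (-0.44 ± 0.28) and ZNF77 (-0.85 ± 0.55) on the lower.

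Among distal members 1 of 59 was called under pomalidomide (1.69%), close to the 1.52% of all distal peaks. It lies inside ZNF546, a KRAB zinc finger gene, at chr19:40006196-40006683, 8960 bp from the start. In the order used above, the JJN3 libraries held 0, 24, 7 and 21 counts there, or 0, 8, 4.49 and 10.2 CPM. KMS11 had 14, 71, 11 and 94 counts, or 3.62, 15.2, 3.56 and 16.7 CPM. In each line both pomalidomide libraries stood above the libraries without it. GNE-781 alone gave 7 counts against 0 in JJN3 (lower 95% counting limit 1.23) and a ratio of 0.982 in KMS11 (0.403 to 2.33). With 3 counts put in for the empty DMSO library, the JJN3 rise was 3.55-fold under pomalidomide and 4.52-fold under both agents. Those values leave out counting error, and the lower 95% counting limits were 2.67 and 3.36. In KMS11 the rise was 4.2-fold (95% counting interval 2.35 to 8.07) and 4.62-fold (2.62 to 8.77). The model gave log2 changes of 2.31 ± 0.45 (adjusted p 0.00168) and 2.53 ± 0.45 (adjusted p 0.00017), which depend on the prior count because of the empty library. DESeq2 returned no adjusted p for this peak, at unadjusted p of 0.000397 and 0.000106. Without the KMS11 pomalidomide library the adjusted p was 0.24, and without the KMS11 library of both agents that of the combination was 0.0541. Without the line as a block both were 1, and 0 of all peaks were called in either comparison.

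The ZNF546 promoter did not follow its distal peak. It had 20.3, 19, 18 and 19.4 CPM in JJN3 and 24.3, 25.3, 24.9 and 24.2 in KMS11, flat across the treatments, with a log2 change of 0 ± 0.25 under pomalidomide and -0.02 ± 0.25 under both agents. Of the 22 other peaks within 200 kb of the distal peak, 0 were called by edgeR under pomalidomide and 1 under both agents, a peak 111803 bp away that was lower (-1.08).

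**Figure D5:**
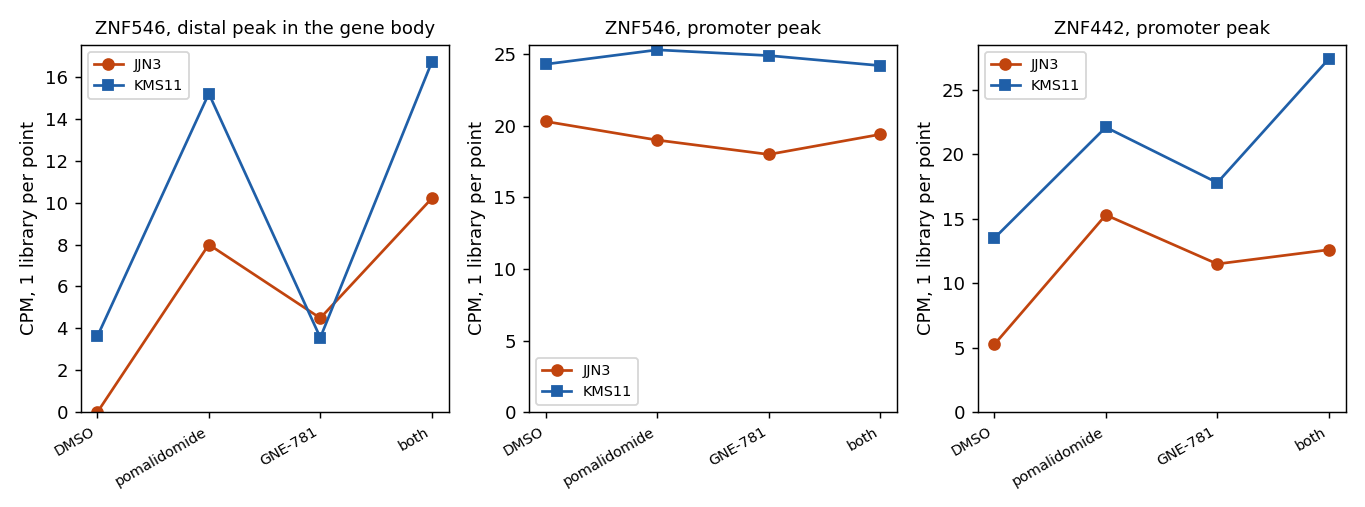
CPM in each library (1 point per library, JJN3 orange, KMS11 blue) by treatment for the ZNF546 distal peak, the ZNF546 promoter peak and the ZNF442 promoter peak. The distal peak is higher in the libraries with pomalidomide in both lines (8 to 16.7 CPM against 0 to 4.49), while the ZNF546 promoter stays between 18 and 25.3 CPM.

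Under GNE-781 alone 0 of 169 promoter and 0 of 59 distal members were called by edgeR's test, beside 0.00629% of all promoter peaks, 0.0259% of all distal peaks and 0.0209% of all peaks. DESeq2 called 0 members and 0 of all peaks, so its count says nothing about the members. In edgeR's test 9 promoter members (5.33%, against 4.2% of all promoters) and 6 distal members had an unadjusted p under 0.05. The median promoter change was 0.18, with 0.19 for other chromosome 19 promoters and 0.02 for all promoters, and chromosome 19 had the highest GNE-781 median of 23 chromosomes over all its peaks (0.17). This came from KMS11 (0.24), since in JJN3 its median was 0.03 and chromosomes 13, 15, 17 and 18 stood higher. By line, the median of the promoter members was 0.16 in JJN3 and 0.2 in KMS11, and that of the other chromosome 19 promoters 0.02 and 0.27. The differences between these medians were not tested. Relative to the other chromosome 19 peaks the members' median was 0.02. Uncalled promoters of lowest p were ZNF229 (1.51 ± 0.52), ZNF91 (0.79 ± 0.29) and ZNF541 (1.19 ± 0.46), all on the higher side, with ZNF649, ZNF101 and ZNF69 at -0.47 ± 0.49, -0.19 ± 0.21 and -0.45 ± 0.55. Distal peaks of lowest p were ZNF709 (0.85 ± 0.39), ZNF557 (0.52 ± 0.24) and ZNF235 (0.78 ± 0.41), and ZNF586 (-1.41 ± 0.54), ZNF329 (-1.45 ± 0.59) and ZNF665 (-1.19 ± 0.51, at 4516 bp), again none called.

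Under both agents 1 promoter member was called (0.592%, against 1.69% of all promoter peaks and 4.79% of all peaks). This was ZNF442 (chr19:12365407-12366055), another KRAB zinc finger gene. JJN3 had 5.26, 15.3, 11.5 and 12.6 CPM across the treatments, and KMS11 had 13.5, 22.1, 17.8 and 27.4. DMSO was the lowest library of each line. The change under both agents was 2.4-fold in JJN3, on 26 against 7 counts (95% counting interval 1.01 to 6.54), and 2.04-fold in KMS11, on 154 against 52 (1.48 to 2.85). Pomalidomide alone gave a log2 change of 0.95 ± 0.30, not called, and the combination against pomalidomide gave 0.10 ± 0.26. For both agents against DMSO the edgeR model gave 1.04 ± 0.30 (adjusted p 0.0282). DESeq2 gave an adjusted p of 0.264, and the call was lost without either DMSO library (adjusted p 0.125 without that of JJN3 and 0.206 without that of KMS11), and without the library of both agents of JJN3 or KMS11 (0.05 and 0.559).

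With promoter counts summed per gene, ZNF442 and ZNF226 (0.88 ± 0.26, adjusted p 0.0459) were called under both agents among 158 genes (1.27%, against 1.89% of all genes). The ZNF226 peak by itself had an adjusted p of 0.0516, with 14.3, 19.3, 21.2 and 25.2 CPM in JJN3 and 11.4, 17.2, 13.6 and 21.7 in KMS11. Both lines had their highest value under both agents. Further uncalled promoters were ZNF175 (0.83 ± 0.30) on the higher side and ZNF101 (-0.57 ± 0.21), ZNF880 (-1.05 ± 0.54) and ZNF497 (-0.31 ± 0.20) on the lower. Among distal members the ZNF546 peak was the 1 called of 59 (1.69%, against 5.85% of all distal peaks). ZNF557 (0.59 ± 0.23), ZNF709 (0.83 ± 0.37), ZNF586 (-1.49 ± 0.50), ZNF665 (-1.22 ± 0.45, its other peak, at 5379 bp) and ZNF329 (-1.10 ± 0.52) had the next lowest p and were not called. The 3 drug comparisons share their DMSO libraries, so members that recur among them are not independent observations.

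Against pomalidomide alone the combination changed 0 members by edgeR and by DESeq2, with 4 promoter and 2 distal members at an unadjusted p under 0.05 and 0.0112% of all peaks called. Against GNE-781 alone it changed 0 promoter members (12 at an unadjusted p under 0.05, 0 by DESeq2) and the ZNF546 distal peak (1.86 ± 0.43, adjusted p 0.0106), where 0.384% of all promoter peaks, 1.34% of all distal peaks and 1.09% of all peaks were called. When the combination was set against the changes of both single agents added together, 0 members departed by edgeR or DESeq2, and 0% of all peaks did, with 6 promoter and 1 distal member at an unadjusted p under 0.05.

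KRAB corepressor and heterochromatin genes were read from a list of 33 genes, of which 26 had a peak, 62 peaks in all. TRIM28 was not among the 21 genes with an assigned promoter peak. None of the 62 peaks was called under pomalidomide or GNE-781 by edgeR, beside 1.25% and 0.0209% of all peaks. In the same test 8 (12.9%) and 2 (3.23%) had an unadjusted p under 0.05, against 11.2% and 6.58% of all peaks. Under both agents 1 of 62 was called (1.61%, below the 4.79% of all peaks). It was a distal peak of CHD4, the remodeller of the NuRD complex, which rose (1.63 ± 0.40, adjusted p 0.00865). Between the lines, 5 of 25 promoter peaks of the list were called (20%, near the 21.7% of all promoters), 2 higher in JJN3 and 3 in KMS11. TRIM33, a relative of TRIM28, had means of 69.7 and 14.4 CPM in JJN3 and KMS11 (2.29 ± 0.16), and MPHOSPH8, a subunit of the HUSH silencing complex, had 36.9 and 13.6 (1.43 ± 0.18). CBX5, which encodes heterochromatin protein HP1α, had 1 promoter peak with 3.51 and 25.3 CPM (-2.89 ± 0.26), and its stronger promoter peak had 71.1 and 117 CPM, under the 2-fold limit (-0.73 ± 0.12). SETDB1 had 51 and 29.2 CPM, also under that limit (0.81 ± 0.14).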

How the data were processed

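Counts per peak for 8 ATAC-seq libraries were used as deposited by the authors, with no scaling, together with the peak coordinates and nearest-gene symbols of the same table. Per the submitters' processing notes, the genome build was GRCh38 and the tools included MACS2 2.1.1.20160309, Bowtie2 2.3.5.1, SAMtools 1.10, cutadapt 2.5 and Trim Galore 0.6.4. How read ends were shifted or duplicates removed is not given in the sources used here. Library totals ran from 1366628 to 5435673 counts.

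Of 62528 peaks, 62234 with a mean of at least 2 CPM were kept. They were scaled by TMM and fitted over all peaks with edgeR 4.0.16 (R 4.3.3), using the quasi-likelihood test, with treatment and line as terms, 3 residual degrees of freedom and Benjamini-Hochberg adjustment over all peaks. A call needed an adjusted p under 0.05, and between lines also a 2-fold difference. The line pairs the libraries, since treated and DMSO libraries come from the same cell line, and it serves as the block. The prior degrees of freedom, taken from all tested peaks together, were 62.8 beside the 3 residual ones. The variance behind an edgeR p-value therefore came mostly from the spread pooled over all peaks. The spread of the peak's own libraries entered only in small part. Separate cultures are not stated, so p-values measure the spread between these libraries, pooled in this way, which may be technical. Log2 changes within each line use a prior count of 2, while those of the edgeR model use its default prior count. The script was tested on simulated data.

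Named peaks were, per comparison, up to 10 called in each direction by adjusted p, filled to 3 by lowest p where fewer passed; the 5 highest promoters; genes with most peaks; a fixed list of known genes; and peaks nearest to the 1000 bp limit. Members and lists were chosen with earlier results of these data known. Alternatives were DESeq2 1.42.0, other scalings and filters, other promoter distances, no block and each library left out. Promoter sequences came from RefSeq (GRCh38.p14). A planned comparison of protein sequences was not run.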

Additional observations from a re-analysis of the deposited data

Results flagged for a closer look

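In 41 called peaks, those named by the rule, 82 groups of 4 libraries (1 line each) were searched for a library far from the other 3, which chance gives in about 1 in 20 groups. At the ZNF829 promoter the KMS11 library under GNE-781 had 7.44 CPM against 1.96 to 2.79 in the other KMS11 libraries. The ZNF575 promoter had 100 CPM in KMS11 under GNE-781 against 76.3 to 80.3. The distal peak of ZNF43 had 3.56 CPM in KMS11 under GNE-781 against 1.81 to 1.96. The distal peak of ZNF235 had 21.2 CPM in JJN3 under GNE-781 against 12.6 to 13.5. A count of 4 among 82 groups is near the 1 in 20 that chance gives. All 4 stand high under GNE-781, where each line has 1 library, and that shared treatment was not tested.

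Under both agents the median log2 change of the distal members was 0.07 in JJN3 and -0.11 in KMS11. That difference between the lines was not tested.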

How the results depend on the processing

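With the line left out as a replicate block, and with DESeq2, the distal calls under pomalidomide, under the combination and of the combination against GNE-781 were each 0, and so were the promoter calls under the combination. Without the block 0 of all peaks were called under pomalidomide or the combination, so those counts are not particular to the members. DESeq2 called 0.116% and 0.633% of all peaks in these 2 comparisons. It gave the ZNF546 distal peak no adjusted p, so that peak could not be called. Scaling to the other chromosome 19 peaks gave 0 promoter and 2 distal calls under the combination, and a minimum of 5 CPM gave 2 promoter calls. Leaving out single libraries gave 0 to 2 distal calls under pomalidomide, 0 to 2 promoter and 0 to 1 distal calls under the combination, and 0 to 1 distal calls of the combination against GNE-781. Without the JJN3 DMSO library the 1 promoter call under the combination was lower, and so was not ZNF442. Summing all peaks of a gene gave 1 gene under the combination. Between the lines, adjusted p alone gave 92 promoter calls, 33 higher in JJN3 and 59 in KMS11. It gave 32 distal calls, 11 higher in JJN3 and 21 in KMS11. The leaning of the promoter members thus depends on the 2-fold limit as well as on the scaling. Shares of all peaks at adjusted p alone were not computed. Signs turned at ZNF541 (distal, pomalidomide; -0.52 to 1.37 over the left-out libraries) and, under GNE-781, at ZNF101 (-0.38 to 0.16), ZNF69 (-1.09 to 0.2) and the ZNF665 distal peak (-1.44 to 0.02), none of them a call. The cause was not tested. The JJN3 DMSO library had a median of 22 counts per promoter member, and the size of drug change these libraries could detect was not estimated. Only 1 library per line and treatment was available here.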
